A study of Mus musculus with 24 samples.

Results

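The genes of MHC class I and class II antigen presentation were followed in kidneys of mice after ischemia-reperfusion injury. The set was chosen by name and annotation: every protein-coding gene whose symbol starts with H2-, together with B2m, Tap1, Tap2, Tapbp, Psmb8, Psmb9, Psmb10, Psme1, Psme2, Cd74, Ciita and Nlrc5. This gave 46 of the 40750 genes of the table, 34 of them H2 genes and 12 others. Of these, 31 reached at least 1 RPKM in at least 3 libraries and were tested, and 15 did not.

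All 12 mice were males of 8 to 10 weeks on a mixed background that carried Kim1-GCE+/- and EGFPL10a+/-, and all had tamoxifen 6 h before and 24 h after surgery. The kidneys of 9 mice were taken 2, 7 or 14 days after both renal pedicles had been clamped for 20 min and released, and those of 3 mice after a sham procedure without the clamp, with 3 biological replicates in each group. From each mouse, a pull-down of GFP-tagged ribosomes (translating ribosome affinity purification) yielded the bound RNA. What the beads left behind is the unbound RNA, taken in the labels to stand for the total kidney. The tag marks cells in which the Kim1 promoter was active at the time of tamoxifen, and Kim1 (Havcr1) is itself switched on by injury. Havcr1 had 50.5, 113 and 211 RPKM in bound RNA at day 2, against 1.51, 1.49 and 5.62 RPKM in bound RNA after sham surgery. The driver gene was thus low in the sham kidneys, and the number of tagged cells was not measured.

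MHC class I molecules are heavy chains paired with beta 2-microglobulin (B2m) on the surface of nearly all nucleated cells. They show peptides that the proteasome cuts in the cytosol and the TAP transporter carries into the endoplasmic reticulum. In inflamed tissue interferon gamma switches 3 catalytic subunits of the proteasome to their immunoproteasome forms. MHC class II molecules are pairs of alpha and beta chains that travel with the invariant chain (Cd74), show peptides from endosomes to CD4+ T cells and are made mainly by macrophages, dendritic cells and B cells, although injured tubule cells can make them too.

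Promoters of MHC genes carry a conserved module with a CCAAT-type Y box that NF-Y binds. The 250 bases before and 50 bases after each annotated start were searched for the Y box letters CTGATTGG, and for the interferon-stimulated letters GAAA, any 2 bases and GAAA again, and the gamma-activated letters TTCNNNGAA, on both strands (RefSeq, build GRCm38.p6). Promoters were listed for 39 of the 46 members, and the Y box letters were found in 19 of these, against 4.70% of 27025 genes in all. Cd74, H2-Ab1, Ciita, Nlrc5, Tap2, H2-T24 and H2-Q1 had no listed promoter and were not searched. The following 80-base stretches, each 5′ to 3′ in the direction of its gene, show the letters in the class II genes H2-Aa and H2-Eb1, the class I genes H2-K1, H2-D1 and H2-T23, and the peptide transporter gene Tap1, because the values of these genes are followed below. Capitals mark the match, which lies on the opposite strand in the class I genes and in Tap1 and reads there as its reverse complement. In H2-K1 it begins 8 bases past the annotated start, and in the others shown before it.
H2-Aa (chr17:34287831-34287910, minus strand): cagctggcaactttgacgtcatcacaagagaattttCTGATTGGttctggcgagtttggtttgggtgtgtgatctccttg
H2-Eb1 (chr17:34305769-34305848, plus strand): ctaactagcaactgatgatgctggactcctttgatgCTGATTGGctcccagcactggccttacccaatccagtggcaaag
H2-K1 (chr17:34000298-34000377, minus strand): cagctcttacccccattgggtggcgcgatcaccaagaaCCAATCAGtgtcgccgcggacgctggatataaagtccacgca
H2-D1 (chr17:35263005-35263084, plus strand): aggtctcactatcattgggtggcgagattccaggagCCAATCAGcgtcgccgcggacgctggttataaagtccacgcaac
H2-T23 (chr17:36032710-36032789, minus strand): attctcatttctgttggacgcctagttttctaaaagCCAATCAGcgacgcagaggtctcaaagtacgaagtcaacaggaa
Tap1 (chr17:34187306-34187385, plus strand): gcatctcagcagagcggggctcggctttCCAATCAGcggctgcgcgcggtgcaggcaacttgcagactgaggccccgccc

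The Tap1 stretch lies in a window that shares 275 bases with the promoter window of Psmb9, which is read in the other direction. Its match lies in the shared bases, so this site counts for both genes. The Y box letters were also present in 9 of the 13 members with a listed promoter that did not reach the level for testing, namely H2-Eb2, H2-M1, H2-M9, H2-M11 and 5 genes of the H2-M10 group. The letters thus stood in promoters of members that were abundant and of members near 0 alike. The interferon-stimulated letters were found in 4 of the 39 members (B2m, H2-T22, H2-T23 and Psme1), against 3.99% of all genes, and the gamma-activated letters in 4 (H2-DMb2, H2-M3, H2-M11 and Psmb8), against 9.55%. B2m, the most abundant class I member, is shown as the example, with its match in capitals. A match is a description of these letters and not evidence of binding.
B2m (chr2:122147512-122147591, plus strand): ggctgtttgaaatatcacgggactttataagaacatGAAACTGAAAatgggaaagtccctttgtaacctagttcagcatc

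Values are RPKM, reads scaled to gene length and library size, so they can be set side by side between genes. Log2 folds come from a limma fit of log2(RPKM + 0.5) to all 24 libraries and carry their standard error after ±. The words rose and fell are kept for members with an adjusted p under 0.05, the adjustment running over 13721 genes. The medians over these genes of the log2 fold against sham lay between 0.13 and 0.22, so single changes stand against that shift. The RPKM of all genes summed to 3.558e+05 to 3.989e+05 in the sham bound libraries and to 4.743e+05 to 4.924e+05 in the day 7 bound ones. Unbound libraries summed to 4.59e+05 to 5.243e+05. Small folds that involve sham bound RNA stand against that difference too. Depths inferred from the smallest steps of RPKM were 15720000 to 24660000 reads per library. In such tissue samples more cells of a type and more RNA per cell cannot be told apart.

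Both libraries of the third day 14 mouse stood apart from the others of their group. In bound RNA its 16 macrophage markers summed to 2509 RPKM and its 16 T and NK cell markers to 98.7 RPKM, against 228 and 159 RPKM and against 6.90 and 7.93 RPKM in the other day 14 mice. Its unbound RNA gave 2563 RPKM and 94.1 RPKM for the same lists. Bound RNA of the third sham mouse also stood apart in the genes described here, with 186 RPKM of H2-D1 against 55.8 and 68.6 RPKM in the other sham mice. As a check of the labelled tissue, 9 proximal tubule markers such as Lrp2 and Slc34a1 summed to 390.3 to 1928 RPKM in bound RNA and to 530.3 to 2263 RPKM in unbound RNA, and none was at 0 in all 3 libraries of any group. In bound against unbound RNA after sham surgery, 6 of these 9 were called lower, where 12.9% of all genes were, with a median log2 fold of -1.26. The 9 markers of injured tubule, Havcr1 and Lcn2 among them, summed to 7288 to 12300 RPKM in bound RNA at day 2, against 508 to 684 RPKM after sham surgery. In unbound RNA they summed to 12970 to 17790 RPKM at day 2, above the bound libraries of that day, against 403 to 647 RPKM after sham surgery.

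Class II genes made up the members with the largest changes. In bound RNA at day 7, 15 of the 31 tested members were called higher and none lower, where 15.2% of all tested genes were called higher and 7.55% lower (2080 and 1036 genes). Median-ratio rescaling moved the median of all genes from 0.13 to -0.03 and the split to 1578 higher and 1766 lower, with 16 members higher and 2 lower, H2-Q6 and H2-Q7. Quantile normalization gave 1562 higher and 1615 lower, with 13 members higher and 1, H2-Q7, lower. Of the 10 class II members, 6 rose, of the 20 class I members, 9 rose, and their median log2 folds were 2.17 and 0.73 against 0.13 for all genes. At day 14, 8 members were called higher, where 8.71% of all genes were (1195 higher and 629 lower, against 818 and 1158 after median-ratio rescaling and 862 and 1012 after quantile normalization). They were 7 of the 10 class II members and, of class I, B2m. In unbound RNA, 2 members were called higher at day 7 (Cd74 and H2-DMb2), where 0.911% of all genes were, and 7 at day 14, where 0.984% were. The counts of both days in both fractions include H2-DMb2. Those of bound RNA at day 7 and unbound RNA at day 14 also include H2-M2, of class I. Both genes passed the filter only through groups in which they were high. The class II median includes H2-DMb2, and also H2-Oa and H2-Ob, which reached 1 RPKM in only 7 and 3 libraries.

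Cd74, the invariant chain that guides class II molecules, was the most abundant member at day 7 and day 14. In bound RNA it had 199, 253 and 138 RPKM after sham surgery, 91.4, 170.3 and 52.6 at day 2, 865, 782 and 1290 at day 7 and 688, 548 and 2952 at day 14. In unbound RNA it had 218, 347 and 304 RPKM after sham surgery, 90.2, 127 and 67.4 at day 2, 1117, 955 and 2414 at day 7 and 1158, 905 and 2983 at day 14. All day 7 and day 14 libraries of either fraction lay above all sham libraries of that fraction. Against sham, the log2 fold of Cd74 was 2.32 ± 0.55 at day 7 and 2.44 ± 0.55 at day 14 in bound RNA (adjusted p = 0.00547 and 0.00811). The unbound values were 2.27 ± 0.55 at day 7 and 2.36 ± 0.55 at day 14 (adjusted p = 0.0496 and 0.04402). At day 2 it pointed the other way, with -1.02 ± 0.55 in bound RNA and -1.63 ± 0.55 in unbound RNA, neither past the threshold (adjusted p = 0.197 and 0.05003).

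The chains of the classical class II molecules I-A and I-E moved with Cd74. H2-Aa, the alpha chain of I-A, had in bound RNA 31.2, 50.3 and 17.8 RPKM after sham surgery, 10.97, 27.6 and 11.8 at day 2, 146, 122 and 169.6 at day 7 and 125, 96.6 and 1066 at day 14. In unbound RNA H2-Aa had 45.1, 72.97 and 50.1 RPKM after sham surgery, 13.2, 29.2 and 16.1 at day 2, 264, 232 and 524 at day 7 and 265, 217 and 752 at day 14. In unbound RNA the day 2 libraries lay below all others, in bound RNA the second of them lay among the sham ones, and the day 7 and day 14 libraries all exceeded the sham ones. H2-Ab1, the beta chain of I-A, had in bound RNA 32.2, 37.6 and 26.95 RPKM after sham surgery, 17.4, 38.7 and 14.3 at day 2, 163, 132 and 195 at day 7 and 121, 115 and 790.3 at day 14. In unbound RNA H2-Ab1 had 43.3, 57.5 and 36.9 RPKM after sham surgery, 16.7, 34.03 and 19.5 at day 2, 186, 180.0 and 336 at day 7 and 189.6, 178 and 641 at day 14. The day 7 and day 14 libraries again did not overlap with sham. H2-Eb1, the beta chain of I-E, had in bound RNA 44.2, 58.7 and 26.4 RPKM after sham surgery, 17.2, 46.6 and 16.2 at day 2, 172, 161 and 209 at day 7 and 135, 102 and 970.3 at day 14. In unbound RNA H2-Eb1 had 52.6, 73.9 and 50.7 RPKM after sham surgery, 20.7, 42.5 and 15.2 at day 2, 233, 222 and 477 at day 7 and 259, 218 and 806 at day 14. In each of these genes the third day 14 mouse gave the highest value of its fraction.

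All 3 chains rose in bound RNA at day 7 and day 14 and in unbound RNA at day 14. The log2 folds at day 7 in bound RNA were 2.23 ± 0.65 for H2-Aa, 2.32 ± 0.57 for H2-Ab1 and 2.12 ± 0.64 for H2-Eb1 (adjusted p = 0.0186, 0.00688 and 0.0221). At day 14 in bound RNA they were 2.93 ± 0.65, 2.78 ± 0.57 and 2.52 ± 0.64 (adjusted p = 0.00782, 0.00477 and 0.0148). In unbound RNA the day 7 values, 2.52 ± 0.65, 2.30 ± 0.57 and 2.31 ± 0.64, were of like size but missed the threshold (adjusted p = 0.0616, 0.0524 and 0.0814). Those of day 14 in unbound RNA, 2.67 ± 0.65, 2.62 ± 0.57 and 2.61 ± 0.64, passed it (adjusted p = 0.0476, 0.0331 and 0.0476).

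**Figure D1:**
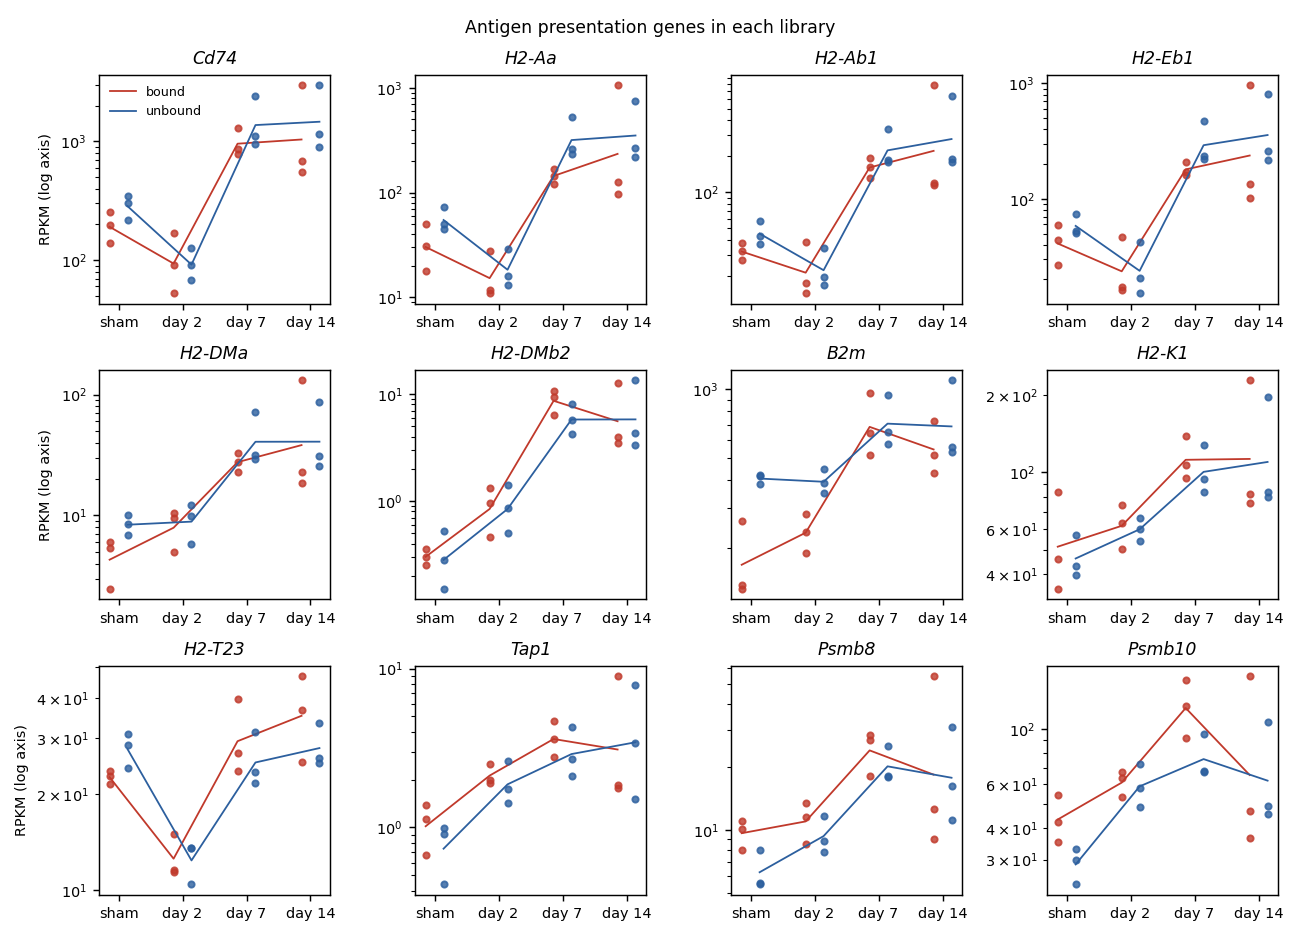
RPKM (log axis) of 12 antigen presentation genes in each library by time after surgery, bound RNA in red and unbound RNA in blue, with lines through the geometric means of 3 libraries. The lines of the class II genes of the top row dip at day 2 and stand above sham at day 7 and day 14, where Cd74 has 548 to 2983 RPKM, and the topmost day 14 points belong to the third mouse.

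Day 7 was also set against day 2, the low point of the class II chains. Over that interval 7 members rose in bound RNA, where 3.56% of all genes did, and 7 in unbound RNA, where 1.69% did. Cd74 differed by 3.34 ± 0.55 in bound RNA and 3.90 ± 0.55 in unbound RNA (adjusted p = 0.00107 and 0.000429). H2-Aa differed by 3.19 ± 0.65 and 4.07 ± 0.65 (adjusted p = 0.005199 and 0.00173), H2-Ab1 by 2.89 ± 0.57 and 3.30 ± 0.57 (adjusted p = 0.00417 and 0.00315), and H2-Eb1 by 2.91 ± 0.64 and 3.59 ± 0.64 (adjusted p = 0.00869 and 0.0039), with the bound value first in each pair. The other members that rose were B2m, H2-DMb2 and H2-T23 in bound RNA, and H2-DMa, H2-DMb2 and H2-T23 in unbound RNA. H2-DMb2 was tested only because of groups in which it was high. All 7 of the bound calls held whichever library was left out, while the unbound count was 4 without the third day 7 unbound library (Cd74, H2-Aa, H2-Ab1 and H2-Eb1). Of all genes, 73 were called higher in that unbound fit, against 232 in the main one. Between day 14 and day 7 limma called no member in either fraction, where 0.0% and 0.00729% of all genes were called in either direction. An unadjusted p under 0.05 was reached by 1 of 31 members in bound RNA (Psmb10, lower), where 6.33% of all genes reached it. In unbound RNA 1 member reached it (H2-Ob, higher), where 2.57% of all genes did.

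The DM and DO genes encode the exchange factors that load class II molecules: DM removes the invariant chain fragment, and DO holds DM back. H2-DMa, the DM alpha chain, had in bound RNA 5.39, 5.98 and 2.47 RPKM after sham surgery, 10.4, 9.54 and 5.0 at day 2, 22.95, 27.9 and 32.8 at day 7 and 22.8, 18.6 and 131 at day 14. In unbound RNA H2-DMa had 6.88, 10.02 and 8.54 RPKM after sham surgery, 9.88, 12.2 and 5.802 at day 2, 31.7, 29.4 and 72.4 at day 7 and 30.98, 25.4 and 86.04 at day 14. Its log2 fold at day 2 was 0.80 ± 0.56 in bound RNA and 0.08 ± 0.56 in unbound RNA, neither called (adjusted p = 0.335 and 0.937), where those of the class II chains were below 0. It had the largest called log2 fold of any member in bound RNA at day 14, 3.00 ± 0.56 (adjusted p = 0.00267), after 2.54 ± 0.56 at day 7 (adjusted p = 0.00364). In unbound RNA it was 2.21 ± 0.56 and 2.22 ± 0.56 at those days, not past the threshold (adjusted p = 0.0568 and 0.0543).

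H2-DMb2, a DM beta chain, was low in sham kidneys and had the largest log2 fold of the members at day 7 in both fractions and at day 14 in unbound RNA. It had in bound RNA 0.255, 0.302 and 0.356 RPKM after sham surgery, 0.964, 1.34 and 0.466 at day 2, 6.37, 10.7 and 9.45 at day 7 and 3.49, 3.95 and 12.6 at day 14. In unbound RNA H2-DMb2 had 0.151, 0.528 and 0.2803 RPKM after sham surgery, 1.399, 0.855 and 0.4997 at day 2, 4.198, 5.75 and 8.005 at day 7 and 4.31, 3.37 and 13.4 at day 14. Every day 7 and day 14 library lay above every day 2 and sham library of its fraction. The log2 fold against sham was 3.51 ± 0.44 at day 7 and 2.94 ± 0.44 at day 14 in bound RNA (adjusted p = 3.65e-05 and 0.000605). The unbound values were 2.97 ± 0.44 and 2.98 ± 0.44 at the same days (adjusted p = 0.00151 and 0.00233), and these calls held whichever library was left out. With sham values near the added 0.5 RPKM, these folds understate the ratio of the levels. H2-DMb2 reached 1 RPKM in 14 libraries, none of them a sham one. It was thus tested only because of groups in which it was high, and its calls support nothing.

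H2-DMb1, the other DM beta chain, rose at day 14. It had 17.9, 19.9 and 57.4 RPKM in bound RNA at day 14, against 5.31, 7.397 and 15.2 RPKM after sham surgery, a log2 fold of 1.64 ± 0.41 (adjusted p = 0.0137). In unbound RNA the day 14 value was 1.77 ± 0.41 (adjusted p = 0.04402). At day 7 H2-DMb1 missed the threshold in bound RNA, at 1.10 ± 0.41 (adjusted p = 0.0585). H2-DMb1 and H2-DMb2 are close paralogs, and how reads were shared between them was not tested. The DO chains stayed low. H2-Oa, the DO alpha chain, reached 2.45, 1.16 and 3.24 RPKM in unbound RNA at day 14, against 0.748, 0.0362 and 0.527 RPKM after sham surgery, and H2-Ob, the DO beta chain, reached 0.6599, 1.04 and 2.24 RPKM, against 0.246, 0.347 and 0.456 RPKM. Neither was called against sham at any time (adjusted p = 0.124 and 0.228 for these values). H2-Oa reached 1 RPKM in only 7 libraries and H2-Ob in only 3, none of them a sham unbound one.

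Ciita, the transactivator that class II transcription depends on, did not pass the test against sham at any time. In bound RNA it had 1.91, 2.57 and 1.003 RPKM after sham surgery, 2.196, 1.78 and 0.0542 at day 2, 3.29, 3.89 and 6.06 at day 7 and 4.02, 2.42 and 12.9 at day 14. In unbound RNA Ciita had 0.709, 0.941 and 0.385 RPKM after sham surgery, 0.632, 0.714 and 0.256 at day 2, 2.26, 2.05 and 3.502 at day 7 and 2.05, 1.78 and 7.06 at day 14. The day 7 and day 14 libraries in unbound RNA all lay above the sham ones, while in bound RNA sham and day 14 libraries overlapped. Its largest log2 fold against sham, 1.61 ± 0.56 in unbound RNA at day 14, had an adjusted p of 0.127. Nlrc5, the transactivator of class I genes, reached 1 RPKM in only 2 libraries, those of the third day 14 mouse, and was not tested. Its values in bound RNA were 0.222, 0.338 and 0.0848 RPKM after sham surgery, 0.232, 0.383 and 0.112 at day 2, 0.592, 0.517 and 0.9899 at day 7 and 0.452, 0.355 and 3.82 at day 14. In unbound RNA Nlrc5 had 0.176, 0.398 and 0.146 RPKM after sham surgery, 0.332, 0.424 and 0.279 at day 2, 0.393, 0.452 and 0.819 at day 7 and 0.377, 0.397 and 2.04 at day 14.

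**Figure D2:**
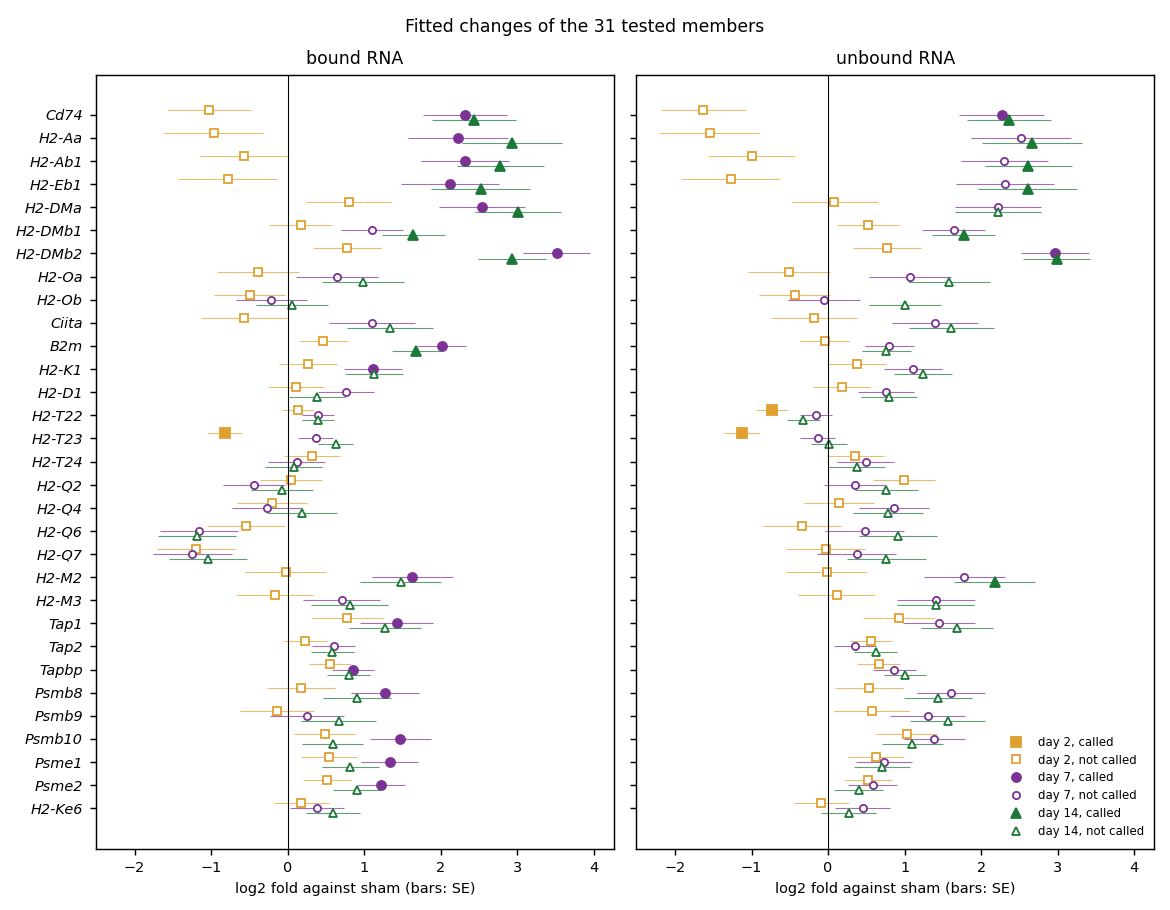
Fitted log2 folds against sham (bars: SE) of the 31 tested members in bound RNA on the left and unbound RNA on the right, with filled symbols for called values. The largest called value is that of H2-DMb2 in bound RNA at day 7, 3.51, and more of the class II members at the top are called than of the class I members below them at day 14.

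Of the class I members, the light chain B2m had the largest called log2 fold in bound RNA. It had in bound RNA 133, 138 and 264 RPKM after sham surgery, 192, 283 and 237 at day 2, 516, 643 and 966 at day 7 and 431, 517 and 725 at day 14. In unbound RNA B2m had 415, 421 and 382 RPKM after sham surgery, 447, 349.9 and 386 at day 2, 651, 575 and 944 at day 7 and 559, 531 and 1095 at day 14. In bound RNA all day 7 and day 14 libraries lay above all sham libraries, and in unbound RNA they did so as well, but the sham level there was higher. B2m rose in bound RNA by 2.01 ± 0.32 at day 7 and 1.68 ± 0.32 at day 14 (adjusted p = 0.0002896 and 0.00291). The unbound values, 0.80 ± 0.32 and 0.76 ± 0.32, did not pass the test (adjusted p = 0.236 and 0.188). After sham surgery B2m was lower in bound than in unbound RNA, with a log2 fold of -1.26 ± 0.32 (adjusted p = 0.00633), and the difference between the fractions in the day 7 response, 1.21 ± 0.45, did not pass its own test (adjusted p = 0.197).

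The classical heavy chains H2-K1 and H2-D1 present peptides to CD8+ T cells. H2-K1 had in bound RNA 35.2, 45.9 and 83.7 RPKM after sham surgery, 50.2, 63.2 and 74.6 at day 2, 94.9, 107 and 138 at day 7 and 76.2, 82.6 and 228 at day 14. In unbound RNA H2-K1 had 43.4, 56.8 and 39.97 RPKM after sham surgery, 53.99, 66.3 and 60.3 at day 2, 94.1, 84.05 and 128 at day 7 and 80.4, 83.8 and 196 at day 14. Its log2 fold in bound RNA at day 7 was 1.12 ± 0.38 (adjusted p = 0.0391), and those of bound RNA at day 14 and unbound RNA at day 7 and day 14, 1.13 ± 0.38, 1.11 ± 0.38 and 1.24 ± 0.38, were not called (adjusted p = 0.0528, 0.161 and 0.09298). H2-D1 had in bound RNA 55.8, 68.6 and 186 RPKM after sham surgery, 64.5, 102 and 136 at day 2, 134, 153 and 170.2 at day 7 and 103, 96.5 and 159.7 at day 14. In unbound RNA H2-D1 had 68.8, 78.99 and 66.9 RPKM after sham surgery, 78.6, 90.4 and 73.9 at day 2, 110.4, 100.5 and 159 at day 7 and 93.3, 99.8 and 204 at day 14. The third sham bound library exceeded every other bound library in H2-D1, so the groups overlapped there, and the log2 fold at day 7, 0.76 ± 0.37, was not called (adjusted p = 0.142). H2-K1, H2-D1 and the Q genes are alike in sequence and differ between strains, and how reads were shared among them on this mixed background was not tested.

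H2-T23, the Qa-1 heavy chain that presents leader peptides to NK cell receptors, was the member that fell at day 2 in both fractions. It had in bound RNA 22.9, 21.4 and 23.5 RPKM after sham surgery, 11.4, 11.6 and 15.03 at day 2, 39.7, 26.8 and 23.6 at day 7 and 36.7, 25.3 and 46.8 at day 14. In unbound RNA H2-T23 had 30.8, 28.5 and 24.1 RPKM after sham surgery, 13.5, 13.5 and 10.4 at day 2, 21.6, 23.4 and 31.3 at day 7 and 24.98, 25.8 and 33.5 at day 14. All day 2 libraries lay below all sham libraries in each fraction. The log2 fold at day 2 was -0.82 ± 0.23 in bound RNA and -1.13 ± 0.23 in unbound RNA (adjusted p = 0.0158 and 0.00238). It was 1 of 1 members called at day 2 in bound RNA, where 6.48% of all genes were called lower and 13.3% higher, and 1 of 2 in unbound RNA, where 5.04% were called lower and 9.76% higher. Rescaling moved these splits too: in bound RNA 1829 genes were higher and 889 lower, but 1378 and 1543 after median-ratio rescaling and 1458 and 1419 after quantile normalization. In unbound RNA 1339 were higher and 691 lower, but 1095 and 1087, and 990 and 970, after the same steps. By day 7 it was higher than at day 2 by 1.19 ± 0.23 in bound RNA and 0.99 ± 0.23 in unbound RNA (adjusted p = 0.00352 and 0.0185). Without the second day 2 bound library the bound call was lost (adjusted p = 0.0699), while the unbound call held in each fit that left out 1 library.

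H2-T22, a non-classical heavy chain recognised by some gamma delta T cells, was the other member lower at day 2 in unbound RNA. It had 17.6, 15.7 and 13.5 RPKM at day 2, against 27.8, 25.4 and 25.2 RPKM after sham surgery, a log2 fold of -0.73 ± 0.21 (adjusted p = 0.0229). In bound RNA the values were 11.6, 18.5 and 15.9 RPKM at day 2, against 14.2, 17.8 and 10.05 RPKM, with a log2 fold of 0.14 ± 0.21. The unbound call was lost without each sham unbound library in turn and without the second or the third day 2 unbound library, so that 1 member was called each time, H2-T23. The difference of the fractions at day 2, 0.87 ± 0.30, was not past the threshold (adjusted p = 0.848).

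The other non-classical genes were lower in level. H2-M2 was at or near 0 in all sham and day 2 libraries. It had 0.378, 1.71 and 1.49 RPKM in bound RNA at day 7, against 0.0281, 0 and 0 RPKM after sham surgery, and 0.549, 2.02 and 4.42 RPKM in unbound RNA at day 14, against 0, 0.0613 and 0 RPKM. All libraries with 1 RPKM or more were day 7 or day 14 ones, so H2-M2 was tested only because of the groups in which it was high, and its calls support nothing. The fitted values were called (log2 fold 1.62 ± 0.53 and 2.18 ± 0.53, adjusted p = 0.0313 and 0.0459), and each call was lost in all fits that left out 1 library except the one without the first mouse of day 7 or day 14. H2-M3, which presents formylated peptides, averaged 6.12 ± 4.71 RPKM in unbound RNA at day 14, against 1.78 ± 0.904 RPKM after sham surgery (SD, n = 3 each), without a call (log2 fold 1.404 ± 0.50, adjusted p = 0.135). H2-Q2, H2-Q4 and H2-T24 stayed under 5 RPKM in every library, and none was called against sham at any time in either fraction. At day 7 in bound RNA their log2 folds were -0.44, -0.27 and 0.12. H2-Ke6, which carries the H2 prefix for its position but encodes a dehydrogenase with no part in antigen presentation, had at most 1.56 RPKM and was not called at any time (log2 fold 0.38 in bound RNA at day 7).

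H2-Q6 and H2-Q7 encode Qa-2 type chains, and their log2 folds in bound RNA were below 0. H2-Q6 had in bound RNA 11.05, 14.6 and 74.3 RPKM after sham surgery, 11.3, 10.6 and 31.2 at day 2, 11.4, 13.6 and 6.49 at day 7 and 8.82, 8.24 and 13.2 at day 14. In unbound RNA H2-Q6 had 2.68, 4.88 and 3.45 RPKM after sham surgery, 2.74, 3.11 and 2.34 at day 2, 5.11, 4.67 and 5.77 at day 7 and 4.58, 6.504 and 12.2 at day 14. H2-Q7 had in bound RNA 3.3, 2.91 and 14.1 RPKM after sham surgery, 1.22, 1.13 and 5.12 at day 2, 2.52, 2.09 and 1.304 at day 7 and 1.91, 1.71 and 3.58 at day 14. In unbound RNA H2-Q7 had 0.874, 0.702 and 0.824 RPKM after sham surgery, 1.25, 0.775 and 0.415 at day 2, 1.0, 1.09 and 1.48 at day 7 and 0.776, 1.47 and 3.72 at day 14. In both genes the third sham bound library was the highest of all. The log2 folds at day 7 in bound RNA, -1.16 ± 0.51 for H2-Q6 and -1.25 ± 0.52 for H2-Q7, did not pass the threshold (adjusted p = 0.108 and 0.0851), and those of H2-Q6 and H2-Q7 in unbound RNA were 0.48 and 0.37. Without the third sham bound library the bound values at day 7 were -0.32 for H2-Q6 and -0.57 for H2-Q7.

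Tap1 and Tapbp, which supply and load peptides, rose at day 7 in bound RNA, and Tap2 was not called. Tap1, a TAP transporter subunit, had in bound RNA 1.39, 1.13 and 0.666 RPKM after sham surgery, 1.996, 1.895 and 2.52 at day 2, 2.78, 3.59 and 4.68 at day 7 and 1.85, 1.78 and 8.99 at day 14. In unbound RNA Tap1 had 0.993, 0.911 and 0.438 RPKM after sham surgery, 1.43, 2.62 and 1.74 at day 2, 2.11, 2.696 and 4.28 at day 7 and 1.51, 3.41 and 7.89 at day 14. All day 2, day 7 and day 14 libraries lay above all sham libraries of their fraction. The log2 fold at day 7 in bound RNA was 1.42 ± 0.47 (adjusted p = 0.0343). The unbound value of day 14, 1.69 ± 0.47, was not called (adjusted p = 0.0738). Tap2, the partner subunit, had in bound RNA 1.39, 1.91 and 2.62 RPKM after sham surgery, 2.13, 2.95 and 2.03 at day 2, 2.97, 3.87 and 2.78 at day 7 and 2.26, 2.62 and 5.09 at day 14. In unbound RNA Tap2 had 1.78, 1.68 and 1.44 RPKM after sham surgery, 2.63, 3.03 and 2.31 at day 2, 1.85, 2.05 and 2.84 at day 7 and 2.51, 1.97 and 4.24 at day 14. Its log2 fold in bound RNA at day 7, 0.60 ± 0.28, was not called (adjusted p = 0.126). Tapbp, or tapasin, which bridges TAP and the heavy chain, had in bound RNA 12.9, 18.4 and 26.6 RPKM after sham surgery, 27.1, 27.7 and 27.4 at day 2, 30.2, 35.8 and 35.8 at day 7 and 26.3, 26.7 and 48.97 at day 14. In unbound RNA Tapbp had 15.97, 19.5 and 12.2 RPKM after sham surgery, 24.4, 29.2 and 21.8 at day 2, 27.5, 25.4 and 34.5 at day 7 and 26.9, 25.1 and 47.97 at day 14. It rose in bound RNA at day 7 by 0.85 ± 0.28 (adjusted p = 0.0319).

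Of the 3 catalytic immunoproteasome subunits, Psmb8 and Psmb10 rose at day 7 in bound RNA and Psmb9 was not called. Psmb8 had in bound RNA 8.04, 10.1 and 11.1 RPKM after sham surgery, 8.58, 13.5 and 11.5 at day 2, 18.1, 28.5 and 26.95 at day 7 and 12.6, 9.03 and 54.6 at day 14. In unbound RNA Psmb8 had 5.49, 8.04 and 5.59 RPKM after sham surgery, 8.89, 11.7 and 7.83 at day 2, 18.1, 17.97 and 25.3 at day 7 and 16.3, 11.1 and 31.1 at day 14. Psmb10, the most abundant of them, had in bound RNA 35.2, 42.6 and 54.7 RPKM after sham surgery, 67.2, 63.5 and 53.3 at day 2, 92.0, 124 and 156 at day 7 and 47.1, 36.6 and 163 at day 14. In unbound RNA Psmb10 had 32.98, 30.02 and 23.9 RPKM after sham surgery, 58.2, 72.3 and 48.7 at day 2, 67.1, 68.1 and 95.4 at day 7 and 49.2, 45.8 and 107 at day 14. For both genes the day 7 libraries lay above the sham ones in each fraction. In bound RNA at day 7 Psmb8 rose by 1.27 ± 0.44 and Psmb10 by 1.47 ± 0.40 (adjusted p = 0.0425 and 0.01202). Psmb9 had in bound RNA 3.75, 3.402 and 4.85 RPKM after sham surgery, 2.28, 4.12 and 4.67 at day 2, 3.95, 5.31 and 5.305 at day 7 and 3.69, 3.58 and 20.2 at day 14. In unbound RNA Psmb9 had 2.12, 2.43 and 1.73 RPKM after sham surgery, 2.55, 5.82 and 2.42 at day 2, 5.59, 4.31 and 8.21 at day 7 and 4.29, 5.75 and 14.3 at day 14. Its log2 fold in bound RNA at day 7 was 0.25 ± 0.49 and in unbound RNA 1.30 ± 0.49, neither called (adjusted p = 0.747 and 0.208). The difference between Psmb9 and the other subunits was not tested. The gene bodies of Psmb9 and Tap1 overlap, and no source used here says whether reads were counted by strand.

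The PA28 activator genes Psme1 and Psme2, which open the proteasome and are induced by interferon gamma, rose in bound RNA at day 7. Psme1 had 53.8, 62.7 and 74.8 RPKM at day 7, against 18.7, 16.3 and 49.4 RPKM after sham surgery, and Psme2 had 43.5, 53.2 and 62.2 RPKM, against 14.5, 18.05 and 41.8 RPKM. The log2 folds were 1.33 ± 0.37 and 1.22 ± 0.32 (adjusted p = 0.0139 and 0.00971). In unbound RNA at day 7 the values of Psme1 and Psme2 were 0.73 ± 0.37 and 0.58 ± 0.32 and were not called (adjusted p = 0.356 and 0.394).

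Each immunoproteasome subunit takes the place of a constitutive one, so levels per length were set against that partner. The ratio of Psmb10 to Psmb7 was 0.673, 0.9496 and 1.17 in bound RNA at day 7, against 0.155, 0.166 and 0.344 after sham surgery. In unbound RNA it was 0.686, 0.823 and 0.915 at day 7, against 0.287, 0.283 and 0.1703. The groups did not overlap in either fraction. The ratio of Psmb8 to Psmb5 was 0.198, 0.21 and 0.296 in unbound RNA at day 7, against 0.0546, 0.1105 and 0.0808 after sham surgery, and 0.1505, 0.301 and 0.288 in bound RNA, against 0.0807, 0.154 and 0.151, where the groups overlapped. The ratio of Psmb9 to Psmb6 was at most 0.0613, in the third day 14 unbound library. With 3 mice against 3, an exact permutation test of such a ratio cannot go below a p of 0.1, so these are given as values.

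**Figure D3:**
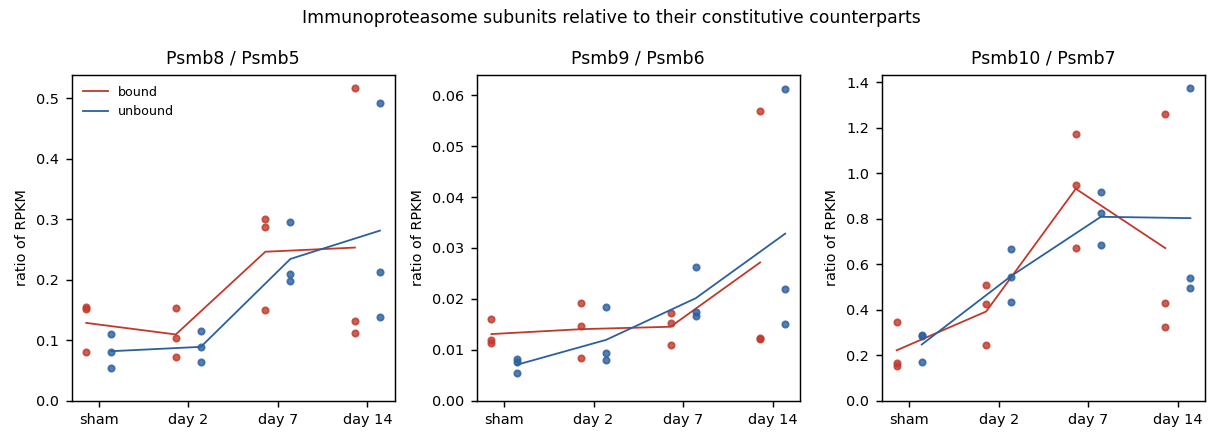
Ratio of RPKM of each immunoproteasome subunit to its constitutive counterpart in each library by time after surgery, bound RNA in red and unbound RNA in blue, with lines through the means of 3 libraries. The Psmb10 to Psmb7 ratio in bound RNA is 0.67 to 1.17 at day 7, above the sham values of 0.15 to 0.34, and the top day 14 points are those of the third mouse.

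Bound RNA was then set against unbound RNA of the same mice. After sham surgery H2-Q6 and H2-Q7 were higher in bound RNA (log2 fold 2.53 ± 0.51 and 2.14 ± 0.52, adjusted p = 0.00128 and 0.004405) and B2m and H2-T22 lower (-1.26 ± 0.32 and -0.91 ± 0.21, adjusted p = 0.00633 and 0.00332). These 4 calls held whichever library was left out, in a comparison where 14.6% of all genes were called higher and 12.9% lower. With the mouse as a block, 9 members were called there, the further ones being Ciita, Psmb9 and Psmb10, higher, and H2-Aa and H2-DMa, lower. Of all 13721 genes, that fit called 2880 higher and 2511 lower. At day 2, H2-Q6 was called higher in bound RNA (2.33 ± 0.51, adjusted p = 0.0232), where 1.17% of all genes were, but not without the first day 2 bound, the first day 2 unbound or the third day 2 unbound library, which left 0 calls. No member was called by limma at day 7 or day 14, where 2.35% and 0.816% of all genes were called in either direction. None had an unadjusted p under 0.05, where 16.4% and 10.5% of all genes did. With the mouse as a block, H2-Aa was called lower in bound RNA at day 7 (-1.14, adjusted p = 0.0245), where 587 of all genes were called higher and 976 lower.

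No member differed between the fractions in its response by limma's interaction test at an adjusted p under 0.05. Over all genes, 0.0%, 0.146% and 0.197% were called at day 2, day 7 and day 14. At an unadjusted p under 0.05 there were 1, 3 and 3 of 31 members, where 5.52%, 16.9% and 16.5% of all genes were. The members were H2-T22 at day 2, B2m, H2-Q6 and H2-Q7 at day 7, and H2-Q6, H2-Q7 and H2-T22 at day 14. A miss of the threshold does not show that the fractions responded alike, since the standard errors of these differences were wide. For Cd74 the difference at day 7 was 0.05 ± 0.78 and for H2-Ab1 0.02 ± 0.81. This test took the bound and unbound libraries of a mouse as independent. With the mouse as a block, no member was called in the interaction at any day either. Over all genes the block fit called 0 at day 2, 334 higher and 388 lower at day 7, and 466 and 396 at day 14. In the fit without a block, leaving out the third day 14 bound library gave 2 members called in the day 14 interaction, H2-Ob (-1.65) and Psmb9 (-1.67). Of all 13721 genes, 690 were called higher and 1131 lower there. H2-Ob reached 1 RPKM in only 3 libraries.

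Macrophage markers were above sham at day 2, day 7 and day 14, whereas class II chains were above sham at day 7 and day 14 but not at day 2. The 16 macrophage markers, among them Adgre1, Cd68, Csf1r and C1qa, summed in bound RNA to 77.1, 94.8 and 44.6 RPKM after sham surgery, 144, 398 and 123 at day 2, 360.1, 242 and 353 at day 7 and 228, 159 and 2509 at day 14. In unbound RNA they summed to 129.8, 161 and 105 RPKM after sham surgery, 267, 434 and 174 at day 2, 732, 587 and 1300 at day 7 and 574, 475 and 2563 at day 14. Every day 2, day 7 and day 14 library lay above every sham library of its fraction. None of these markers was at 0 in all 3 libraries of any group, so bound RNA also held transcripts of these markers. Which cells these transcripts came from was not tested. Of the 15 tested macrophage markers, 2 rose at day 2, 7 at day 7 and 6 at day 14 in bound RNA, where 13.3%, 15.2% and 8.71% of all genes rose, with Adgre1 (F4/80) at 1.85 ± 0.60 and 2.22 ± 0.60 (adjusted p = 0.0304 and 0.0196). In unbound RNA none rose at day 2 and 1 rose at each of day 7 and day 14, where 9.76%, 0.911% and 0.984% of all genes rose. Ptprc, the pan-leukocyte gene on the same list, was among the markers not called at day 7 in bound RNA (0.34 ± 0.47, adjusted p = 0.6399). The part of macrophage RNA in the class II values was not tested.

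The sum of H2-Aa, H2-Ab1 and H2-Eb1 was 108, 147 and 71.2 RPKM after sham surgery, 45.6, 113 and 42.3 at day 2, 481, 415 and 573 at day 7 and 381, 313 and 2827 at day 14 in bound RNA. In unbound RNA it was 141, 204 and 138 RPKM after sham surgery, 50.7, 106 and 50.7 at day 2, 683, 634 and 1337 at day 7 and 713, 613 and 2200 at day 14. All day 2 libraries thus had more macrophage marker RNA than the sham libraries of their fraction, but less class II RNA in 5 of 6 cases, the second bound library lying among the sham ones. The day 7 and day 14 libraries were high in both. The 6 neutrophil markers summed to 96.2, 280.5 and 259.7 RPKM in unbound RNA at day 2, against 60.7, 18.2 and 14.9 RPKM after sham surgery. The sum of H2-K1 and H2-D1 was 229, 259.9 and 309 RPKM in bound RNA at day 7, against 91.02, 114 and 269.7 RPKM after sham surgery, where the groups overlapped. The ratio of class II chains to these class I chains was 2.102, 1.597 and 1.86 in bound RNA at day 7, against 1.18, 1.28 and 0.264 after sham surgery, and 3.34, 3.44 and 4.65 in unbound RNA, against 1.26, 1.505 and 1.29. The ratio of Cd74 to the class II chains lay between 1.04 and 2.25 in all 24 libraries.

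**Figure D4:**
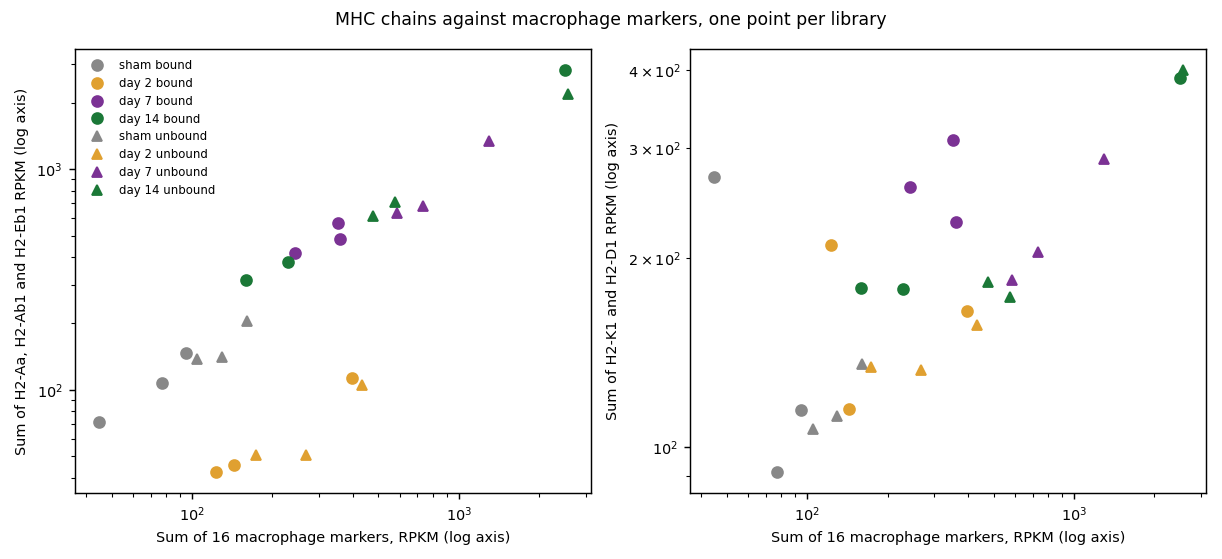
Summed RPKM (log axes) of 3 class II chains on the left and of H2-K1 and H2-D1 on the right against the sum of 16 macrophage markers, with 1 point per library, circles for bound and triangles for unbound RNA. Day 7 and day 14 libraries are high in class II chains and macrophage markers, and the day 2 libraries lie below the others of like macrophage sum in class II chains, at 42.3 to 113 RPKM.

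Markers of other antigen presenting cells were read in the same way, although sums of different lists do not rank cell types. The 11 dendritic cell markers summed to 12.3, 13.4 and 16.2 RPKM in bound RNA at day 7, against 8.57, 10.3 and 7.71 RPKM after sham surgery, and in unbound RNA to 14.4, 16.3 and 24.4 RPKM at day 7, against 9.97, 10.2 and 8.09 RPKM. At day 14 they summed to 54.85 RPKM in bound and 52.41 RPKM in unbound RNA of the third mouse, above all other libraries. In bound RNA of the first and second day 14 mice they summed to 9.65 and 8.20 RPKM, within the sham range. Of the 6 tested dendritic cell markers, 1 rose at day 14 in bound RNA, where 8.71% of all genes did. It was Clec10a (1.77 ± 0.41, adjusted p = 0.0102). The 7 B cell markers summed to between 0.797 and 9.29 RPKM in every library, with Pax5 at 0 in all 24 of them. T and NK cell markers summed to 18.5, 12.9 and 26.2 RPKM in unbound RNA at day 7, against 4.897, 12.5 and 5.06 RPKM after sham surgery. Endothelial markers, of cells that also make MHC molecules, fell in bound RNA at day 7 in 3 of 10 cases, where 7.55% of all genes fell (among them Kdr at -1.20 ± 0.28, adjusted p = 0.00542). The part of these cells in the class II values was not tested.

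The day 14 values were smaller without the third day 14 mouse. Without it in both fractions, the log2 folds in bound RNA were 1.68 for Cd74, 1.84 for H2-Aa, 1.86 for H2-Ab1 and 1.505 for H2-Eb1, and the same 8 members were called. In unbound RNA they were 1.84, 2.12, 2.02 and 2.02, and 4 members were called (H2-Aa, H2-Ab1, H2-Eb1 and H2-DMb2). Without its bound library alone the bound call of H2-Eb1 was lost, and without the first or second sham bound library that of H2-DMb1. Without its unbound library alone, or without each sham unbound library in turn, 1 call remained at day 14, that of H2-DMb2. At day 7 the unbound calls were 1 whichever library was left out, again H2-DMb2. That gene passed the filter only through groups in which it was high. A fit of the groups compared only gave 20 members at day 7 and 0 at day 14 in unbound RNA, and 0 at day 14 in bound RNA. The calls over all genes moved as well. In unbound RNA that fit called 1701 genes higher and 341 lower at day 7, but 1 higher and 2 lower at day 14. In bound RNA at day 14 it called 15 higher and 6 lower.

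The bound calls of day 7 differed in how firmly they stood. Between 6 and 13 members were called when 1 library was left out, with 7 without the first, 9 without the second and 13 without the third sham bound library, and 9 without the second and 6 without the third day 7 bound library. B2m, Cd74, H2-Ab1, H2-DMa and H2-DMb2 were called in every such fit, though H2-DMb2 passed the filter only through groups in which it was high. The calls of H2-K1, H2-Eb1, H2-M2, Psmb8, Tap1 and Tapbp were each lost in at least 4 of the 6. Without the first sham bound library H2-Q6 was called lower (-1.67). In unbound RNA every day 7 library lay above every sham library for 25 of 31 members, where 30.5% of all genes did so, and at day 14 for 24 members, where 28.7% did. In bound RNA this was so for 19 members at day 7, where 24.9% of all genes did, and for 11 at day 14, where 15.5% did. H2-DMb2 and H2-M2, which passed the filter only through groups in which they were high, are in each of these counts. The unbound counts of day 7 and day 14 also include H2-Oa, and that of day 14 H2-Ob. H2-Oa reached 1 RPKM in only 7 libraries and H2-Ob in only 3, none of them a sham unbound one. Their place in the unbound counts is thus no support either.

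Other genes of the pathway were read from lists of their own. Of 11 further genes of class I peptide loading and trimming, 5 rose in bound RNA at day 7 and none fell, where 15.2% of all genes rose, among them Tapbpl (1.09 ± 0.26), Pdia3 (0.93 ± 0.22) and Erap1 (1.005 ± 0.26), the aminopeptidase that trims peptides (adjusted p = 0.00547, 0.00488 and 0.00939). Their median log2 fold was 0.51 against 0.13 for all genes. Of 13 class II regulators and endosomal processing genes, 5 rose and 1 fell at day 2 in bound RNA, 3 rose at day 7 and 5 at day 14, where 13.3%, 15.2% and 8.71% of all genes rose. The 3 of day 7 were Ifi30, the lysosomal thiol reductase (1.59 ± 0.34), Ctsl, a cathepsin (1.07 ± 0.27), and Rfxap, a subunit of the RFX factor (0.80 ± 0.28), with adjusted p of 0.00304, 0.00751 and 0.0434. Ctsl and Ifi30 were already higher at day 2 in bound RNA (1.29 ± 0.27 and 1.38 ± 0.34, adjusted p = 0.00226 and 0.00754), when Cd74 and the class II chains were not. Ctss, the cathepsin that cuts the invariant chain, rose at day 14 (2.55 ± 0.76, adjusted p = 0.0317). Rfxank, another RFX subunit, fell at day 2 in bound and in unbound RNA (-0.80 ± 0.19 and -0.81 ± 0.19, adjusted p = 0.00612 and 0.00682).

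Of 17 constitutive proteasome genes, 4 rose in bound RNA at day 7, where 15.2% of all genes did, with Pomp, the proteasome assembly factor, at 1.28 ± 0.27 and Psme3 at 0.95 ± 0.23 (adjusted p = 0.002898 and 0.00638), and their median of 0.23 stood beside 0.13 for all genes. Class I-like genes outside the H2 complex went both ways. At day 7 in bound RNA, where 15.2% of all genes rose and 7.55% fell, of 8 tested Raet1e, an NKG2D ligand gene, and Cd1d1, which presents lipids, rose (1.76 ± 0.43 and 1.54 ± 0.46, adjusted p = 0.00653 and 0.0209), and Azgp1 fell (-2.30 ± 0.42, adjusted p = 0.000958). Azgp1 fell against sham at each time in both fractions, with log2 folds of -2.30 to -1.43 (adjusted p = 0.000958 to 0.0195). Of 8 co-stimulation and checkpoint genes, 4 rose at day 7 in bound RNA, where 15.2% of all genes did: Vtcn1 (1.69 ± 0.40), Icam1 (1.57 ± 0.38), Cd276 (1.95 ± 0.50) and Cd40 (1.76 ± 0.51), with adjusted p of 0.00547, 0.00646, 0.00841 and 0.0166.

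Interferon signalling switches on many of the members. Of 19 tested genes of it, 3 rose at day 2, 4 at day 7 and 1 at day 14 in bound RNA, with none lower, where 13.3%, 15.2% and 8.71% of all genes rose. In unbound RNA 3, 0 and 2 rose at the same days, where 9.76%, 0.911% and 0.984% of all genes did. Ifngr2, a chain of the interferon gamma receptor, rose at each time in bound RNA (1.66 ± 0.28, 1.58 ± 0.28 and 1.14 ± 0.28 at day 2, day 7 and day 14, adjusted p = 0.000358, 0.000831 and 0.0129). Gbp2, a GTPase induced by interferon gamma, rose at day 7 in bound RNA (1.27 ± 0.45, adjusted p = 0.0441). Irf1, a transcription factor that interferon gamma induces, was not called in bound RNA at day 7 (0.64 ± 0.51, adjusted p = 0.384). Ifng itself was at 0 in all libraries but those of day 14, where it had 0, 0 and 0.192 RPKM in bound and 0.157, 0 and 0.516 RPKM in unbound RNA.

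The 15 members that were not tested stayed near 0 in nearly all libraries. The 4 genes H2-M10.1, H2-M10.2, H2-M10.3 and H2-M10.4 were at 0 in all 24. H2-Q10, a secreted class I chain made by liver, reached 1.76 RPKM in its highest library. The other ones, with their highest value, were H2-M1 (0.315 RPKM), H2-M10.5 (0.299 RPKM), H2-M9 (0.237 RPKM), H2-M5 (0.187 RPKM), H2-Eb2 (0.0850 RPKM), H2-M11 (0.0473 RPKM), H2-T3 (0.0461 RPKM), H2-M10.6 (0.0417 RPKM) and H2-Q1 (0.0222 RPKM). Nlrc5, given above, was the highest, with 3.82 RPKM.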

How the data were processed

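Ribosome-bound and unbound RNA from the kidneys of 12 mice was sequenced as 24 libraries, and the authors deposited 1 table of RPKM per gene and library. Per the submitters' processing notes, reads were processed with STAR 2.0.4b, Subread featureCounts 1.4.5 and edgeR. Neither the genome build nor the strandedness is given in the sources used here. Of the lines of the table, 1081 repeated an earlier line exactly, which left 40750 genes. Reads were judged by whole multiples of the smallest step: 73.7% to 78.1% of values up to 50 reads came out whole within 0.02 reads, too few for a count test, so depths are inferred and counting intervals are not given.

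Values were taken as log2(RPKM + 0.5), and the 13721 genes that reached 1 RPKM in 3 or more libraries were fitted with limma 3.58.1 (R 4.3.3, empirical Bayes with trend) over 8 group means of 3 libraries, without a replicate block, with Benjamini-Hochberg adjustment over all tested genes. Fold changes of low genes are understated by the added 0.5. The pairing was checked from deviations from the group means: bound and unbound libraries of the same replicate number correlated in all 12 pairs (r 0.268 to 0.67), and the numbers there mark the same mouse, whereas same numbers at different times gave r of -0.367 to 0.369, over 0.1 in all 3 pairs for 1 pair of groups, and do not pair mice. Every tested member is named; values of every library are given for core members by role, for the largest called fold of each comparison with sham and for interactions, and up to 4 genes with the smallest p of each other list. Members and lists were chosen with earlier results of these data known. Alternatives were another added value, no filter, median-ratio rescaling, quantile normalization, a fit of the compared groups only, the replicate block and leaving out each library.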

Additional observations from a re-analysis of the deposited data

Results flagged for a closer look

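H2-Q7 had log2 folds of opposite sign in bound and unbound RNA at day 7, and in each fraction its day 7 and sham libraries did not overlap. In bound RNA the day 7 libraries had 2.52, 2.09 and 1.30 RPKM, all below the sham libraries with 3.3, 2.91 and 14.1 RPKM. In unbound RNA the day 7 libraries had 1.0, 1.09 and 1.48 RPKM, all above the sham libraries with 0.874, 0.702 and 0.824 RPKM. The difference of the log2 folds, bound minus unbound, was -1.62 ± 0.73, which limma's interaction test, fitted across all genes, did not call (adjusted p = 0.270). Without the third sham bound library the difference was -0.95 (adjusted p = 0.418).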

How the results depend on the processing

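No called value of a member reversed its sign under any setting tried. Of 37 called values of core members, 37 stayed called with 0.1 added in place of 0.5, 34 with 1 added, 26 without the filter on low values, 37 after median-ratio rescaling, 29 after quantile normalization, 22 in a fit of the compared groups only, 24 with the replicate block, and 21 whichever library was left out. The cause of these losses was not tested.

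The number of members called changed as follows. Without the filter it was 9 in bound RNA at day 7 (15 in the main analysis), 1 and 1 in unbound RNA at day 7 and day 14 (2 and 7), and 0 for bound against unbound RNA at day 2 (1). That fit tested 42 members among 26077 genes. Of these genes it called 1691, 41 and 45 higher against sham in those groups, and 98 higher between the fractions at day 2. With 0.1 added it was 6, and with 1 added 1, in unbound RNA at day 7, and with 1 added 4 in unbound RNA at day 14. Over all genes 191, 80 and 80 were called higher in these fits, where the main analysis called 125 at day 7 and 135 at day 14. Median-ratio rescaling gave 2 in bound RNA at day 2 (1), and in unbound RNA 4 at day 2 (2) and 4 at day 7. The members of day 2 were lower, where 1543 of all genes were in bound and 1087 in unbound RNA. Those of unbound RNA at day 7 were higher, where 140 of all genes were. Quantile normalization gave 2 in bound RNA at day 2, and in unbound RNA 1 at day 7 and 2 at day 14. Over all genes it called 1419 lower in bound RNA at day 2, and 92 and 79 higher in unbound RNA at day 7 and day 14. In a fit of the compared groups only the counts were 0 and 0 in bound RNA at day 2 and day 14 (1 and 8), and 9, 20 and 0 in unbound RNA at day 2, day 7 and day 14. That fit gave 16 in unbound RNA for day 7 against day 2 (7), and 0 and 2 for bound against unbound RNA at day 2 and day 7 (1 and 0). Over all genes it called 381 higher and 82 lower in bound RNA at day 2, and 2290 and 964 in unbound RNA at day 2. For unbound day 7 against day 2 it called 631 higher and 467 lower. Between the fractions it called 0 genes at day 2, and 990 higher and 1143 lower at day 7.

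With the replicate block, bound RNA had 0 members called at day 2, 9 at day 7 and 2 at day 14, and unbound RNA had 5 at day 2, 10 at day 7 and 12 at day 14. Over all genes that fit called 817, 742 and 94 higher and 380, 304 and 35 lower in bound RNA. In unbound RNA it called 2276, 305 and 559 higher and 1106, 58 and 92 lower. Replicate numbers at different times do not pair mice, so these counts say little about the size of an effect. For bound against unbound RNA, where the numbers mark the same mouse, the block gave 9 after sham surgery (4) and 1 at day 7 (0). Over all genes it called 2880 higher and 2511 lower after sham surgery, and 587 higher and 976 lower at day 7. It changed no other count by more than 1.5 times.

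Leaving out 1 library gave 0 to 4 members in bound RNA at day 2, 6 to 13 at day 7 and 7 to 12 at day 14. In unbound RNA it gave 1 to 2 at day 2, 1 to 1 at day 7 and 1 to 8 at day 14, and for day 7 against day 2 it gave 4 to 6. Over all genes, bound RNA then had 880 to 2860, 1160 to 2699 and 498 to 1771 genes called higher at the 3 days. Unbound RNA had 564 to 1321, 15 to 52 and 7 to 334, and 59 to 201 for day 7 against day 2. At day 2, 469 to 1213 were called lower in bound and 294 to 682 in unbound RNA. For bound against unbound RNA leaving out 1 library gave 0 to 1 at day 2 and 0 to 1 at day 14 (0), the 1 being H2-Ob without the third day 14 bound library, and 0 to 2 for the day 14 interaction (0). Without that library 46 of all genes were called higher and 305 lower between the fractions at day 14. In the day 14 interaction 690 were then called higher and 1131 lower. Leaving out the third day 14 mouse in both fractions gave 4 members in unbound RNA at day 14 and 1 for bound day 14 against day 7 (0), namely Psmb10. Over all genes that fit called 79 higher and 9 lower in the former comparison, and 1 higher and 11 lower in the latter.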
